A study of Rattus norvegicus with 3 samples.

Results

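The genes described here encode the contractile apparatus of smooth muscle and its main transcriptional regulators, measured in cultured rat Schwann cell precursors. Rows of the deposited table were taken where the gene name was that of 1 of 10 listed genes, and all 10 were found among 17337 listed genes. They are the actins Acta2 and Actg2, the actin-associated genes Tagln and Cnn1, the tropomyosins Tpm1 and Tpm2, the myosin genes Myl9 and Myh11, and the regulators Srf and Myocd. The set was chosen by name with the TPM levels of its genes in these libraries known, starting from high Acta2 and Tagln, so levels of the 10 genes are given as a description with no test. The question was whether high Acta2 and Tagln came with the rest of the contractile genes.

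The 3 libraries form 1 group of untreated, wild-type cells from the dorsal root ganglion of embryonic rats, grown in a modified Sato medium based on DMEM. The labels call the cells both Schwann cell precursors and primary peripheral glia. The labels give no strain, no embryonic age and no number of animals or cultures behind a library, and there is no second group. Levels are in TPM, a count per unit of gene length put on the same total in every library, and means are given ± SD over the libraries (n = 3). Libraries held 14139074 to 15309526 counts. All 8 measured precursor markers were above 1 TPM by limma (Benjamini-Hochberg adjusted p at most 2.24e-12). So were 78.4% of the 13345 genes with a count, at an adjusted p under 0.05, and the number of markers above 1 TPM therefore does not identify the cells. Among the markers were the endothelin receptor gene Ednrb at 1414 ± 16.7 TPM and the neurotrophin receptor gene Ngfr at 655 ± 20.7 TPM.

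As background, smooth muscle contracts when myosin II, switched on by phosphorylation of its regulatory light chain, pulls on actin filaments coated with tropomyosin and calponin. Serum response factor binds a short DNA element, the CArG box, in most of these genes, and it is driven either by myocardin, which is largely restricted to smooth and cardiac muscle, or by the more widely expressed myocardin-related factors. Acta2 and Tagln are early genes of this programme and are also used by myofibroblasts, whereas Myh11 is a late and restricted one. Schwann cells are glia and are not contractile muscle cells.

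The 10 genes spread over a wide range of TPM rather than a common level, and are described in steps set by cut-offs of 100 and 20 TPM. Levels also differed within a step, as in the upper one, with means from 466 TPM for Tagln to 136 TPM for Tpm2. Tagln, Acta2, Tpm1, Myl9 and Tpm2 made up the upper step, at 100 TPM or more in each library, a level reached by 11.7% of all listed genes. Srf, Actg2 and Cnn1 formed a middle step of 3 genes between 20 and 100 TPM. Myh11 lay just above 1 TPM, and Myocd was close to absent. Every library had at least 1 TPM of 9 of the 10 genes, as it did of 60.6% of all listed genes. Their median level was 87.5 TPM, against 8.38 TPM over all listed genes, but the genes were chosen with their levels known, so nothing is read from either count or from the median.

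The bases before the annotated transcription start are shown for 4 of the 10 genes, because they carry, or lack, the element that serum response factor binds. Promoter entries from RefSeq (build GRCr8) were found for 6 of the 10 genes, namely Acta2, Actg2, Cnn1, Tpm1, Tpm2 and Srf. Tagln, Myl9, Myh11 and Myocd had no entry. Each line gives the 250 bases before the start, 5′ to 3′ on the strand of the gene, and capitals mark a CArG box or a stretch that differs from it by 1 letter. The regions are chr1:241172504-241172753 on the minus strand for Acta2, chr8:76543416-76543665 on the minus strand for Tpm1, chr9:21923826-21924075 on the plus strand for Srf and chr4:117594040-117594289 on the minus strand for Actg2.
Acta2: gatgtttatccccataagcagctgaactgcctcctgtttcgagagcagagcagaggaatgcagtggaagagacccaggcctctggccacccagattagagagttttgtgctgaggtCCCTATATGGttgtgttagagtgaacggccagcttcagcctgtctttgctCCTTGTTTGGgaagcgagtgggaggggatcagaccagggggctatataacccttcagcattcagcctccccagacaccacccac
Tpm1: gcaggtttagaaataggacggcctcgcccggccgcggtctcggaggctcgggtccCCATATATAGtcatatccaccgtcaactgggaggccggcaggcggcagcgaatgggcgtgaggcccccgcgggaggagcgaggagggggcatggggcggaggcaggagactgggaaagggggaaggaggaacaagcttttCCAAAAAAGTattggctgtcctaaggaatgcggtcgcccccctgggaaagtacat
Srf: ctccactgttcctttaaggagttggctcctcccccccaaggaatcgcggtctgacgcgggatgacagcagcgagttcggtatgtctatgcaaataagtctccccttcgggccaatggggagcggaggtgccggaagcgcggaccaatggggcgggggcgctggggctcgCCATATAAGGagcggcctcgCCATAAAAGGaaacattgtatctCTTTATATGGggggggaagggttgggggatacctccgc
Actg2: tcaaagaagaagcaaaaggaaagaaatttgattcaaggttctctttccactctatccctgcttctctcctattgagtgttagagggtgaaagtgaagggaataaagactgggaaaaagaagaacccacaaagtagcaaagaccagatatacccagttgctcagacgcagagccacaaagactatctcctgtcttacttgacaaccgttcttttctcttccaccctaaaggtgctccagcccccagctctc

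The Acta2 window held 2 stretches that differ from the CArG box by 1 letter, CCCTATATGG with its first base 134 bases before the start and CCTTGTTTGG with its first base at 84. Tpm1 also held 2 such stretches, CCATATATAG at 195 and CCAAAAAAGT at 55 bases before the start. Srf held 2 exact boxes, CCATATAAGG at 81 and CCATAAAAGG at 61, and also CTTTATATGG, with 1 different letter, at 38. No stretch of either kind was found in the windows of Actg2, Cnn1 and Tpm2. The box has 10 letters, with a run of 6 that may each be A or T between a pair of C and a pair of G, so the search gives the same result on both strands. Of 33469 rat promoter windows of this length 1.5% held an exact box, 18.7% held at least 1 exact or 1-letter-different stretch, and 3.05% held 2 or more. These are matches of letters, and binding was not measured.

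Acta2, the smooth muscle alpha-actin, had 329, 312 and 309 TPM in replicates 1, 2 and 3, from 3363, 2971 and 2937 counts. It ranked 540 among all listed genes by mean level. In rn6 this gene (NCBI gene 81633) spans 252537614 to 252550394 of chromosome 1, minus strand, with 10 listed exons. Its mean was 317 ± 10.9 TPM, a coefficient of variation of 3.46% between libraries. Actg2, the gamma-actin of gut and other visceral muscle, had 24.7, 26.1 and 22.2 TPM, from 223, 219 and 187 counts. Acta2 therefore stood above Actg2 in 3 of 3 libraries, with a log2 ratio of levels of 3.70 ± 0.11 (SD, n = 3), or 13.0-fold by the means. The actin proteins are nearly identical and their coding sequences are similar. No source used here says how reads with several matches were counted, so the level of any single actin gene is uncertain.

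Tagln, encoding the actin-binding protein transgelin (SM22), was the highest of the 10 genes by TPM, with 481, 463 and 455 TPM from 3733, 3346 and 3295 counts. Its rank among all listed genes was 333. The gene (NCBI gene 25123) has 5 listed exons and spans 50222895 to 50228369 of chromosome 8, minus strand, in rn6. Cnn1, encoding calponin 1, a related protein that restrains actomyosin, had 22.6, 22.7 and 20.7 TPM from 242, 226 and 206 counts. The log2 ratio of Tagln to Cnn1 was 4.40 ± 0.06 (SD, n = 3), a 21.2-fold difference of the means. Cnn1 was at about the level of Actg2, and the library ranges of these genes overlapped, although Actg2 was higher in each library.

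The tropomyosin genes stood below Acta2 by TPM in each library. Tpm1 had 242, 237 and 241 TPM, from 5264, 4786 and 4881 counts, and Tpm2 had 136, 134 and 137 TPM, from 1501, 1376 and 1404 counts. The coefficient of variation between libraries was 1.24% for Tpm1 and 1.01% for Tpm2, under the 1.42% and 2.65% that counting error alone gives. Cnn1 (5.22% against 6.68%) and Srf (1.87% against 2.97%) also lay under counting error. Above it were Acta2 (3.46% against 1.80%), Tagln (2.78% against 1.70%), Myl9 (4.29% against 2.49%) and Actg2 (7.98% against 6.92%). A coefficient of variation over 3 libraries is itself imprecise, so no difference in spread between genes is read from these values. Tpm1 and Tpm2 make muscle and non-muscle isoforms by alternative exons. The table holds 1 value per gene, so those isoforms cannot be told apart here.

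The myosin genes were far apart. Myl9, a regulatory light chain used in smooth muscle and other cells, had 238, 232 and 219 TPM from 1754, 1597 and 1503 counts. Its range overlapped that of Tpm1, which was the higher of the pair in each library. Myh11, the smooth muscle myosin heavy chain, had 1.47, 1.86 and 1.73 TPM from 71, 84 and 78 counts and ranked 10318 among all listed genes. The level of Acta2 was 188-fold that of Myh11 by the means, with a log2 ratio of 7.48 ± 0.21 (SD, n = 3), or 6.89 with 1 TPM in place of 0.1 TPM added to each gene. Without the division by length, which is 1383 bases for Acta2 and 6555 for Myh11, the log2 ratio was 5.29, or 39.6-fold by the means. Myh11 (NCBI gene 24582) has 41 listed exons and spans 764421 to 859184 of chromosome 10, plus strand, in rn6, and the spread of 12.0% between its libraries was near the 11.4% of counting error.

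Of the regulators, Srf had 38.5, 39.6 and 39.9 TPM from 1168, 1117 and 1128 counts, with a coefficient of variation of 1.87%. Myocd, the muscle-restricted coactivator, had 0, 3 and 2 counts, which correspond to 0, 0.088 and 0.059 TPM. Its 5 counts in all give a pooled level of 0.0478 TPM with a 95% exact Poisson interval of 0.0155 to 0.111 TPM, which covers counting error only. A count of 3, taken as the floor, corresponds to 0.0820 TPM for this gene in replicate 1 and 0.0881 and 0.0880 TPM in replicates 2 and 3, so Myocd was at or under the floor in each library. The pooled level of Srf was 823-fold that of Myocd, with a counting interval of 353 to 2536. In a bulk sample a low level in all cells and a higher level in a few cells cannot be told apart, for Myocd, Myh11 and each of the other genes.

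**Figure D1:**
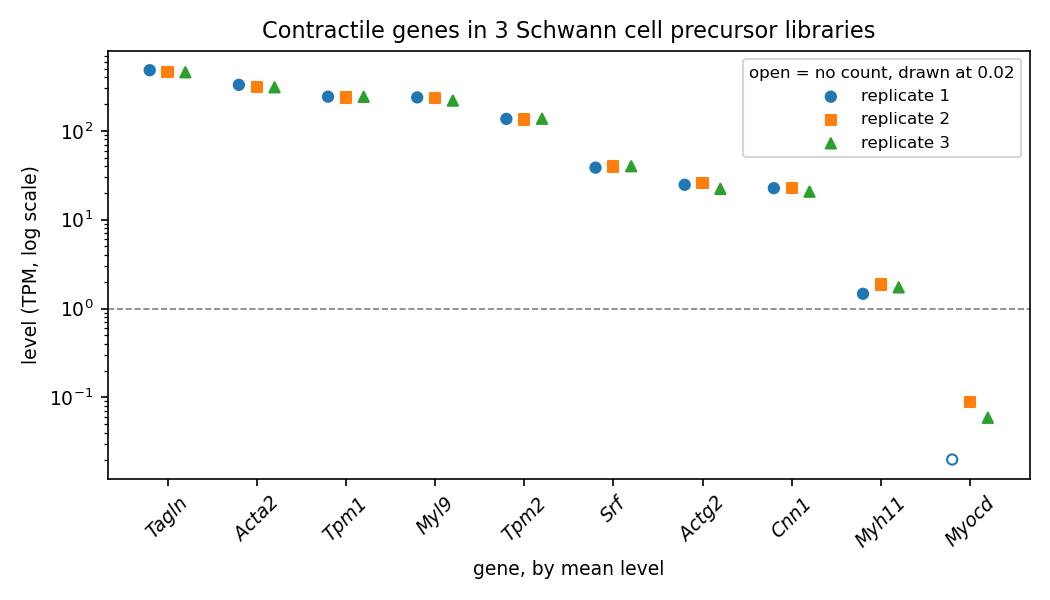
Level of each of the 10 genes in TPM (log scale) in replicates 1 to 3, ordered by mean level, with a dashed line at 1 TPM and an open symbol where a library had no count. Points of a gene lie close together, and the widest gaps are between Tpm2 at 134 to 137 TPM and Srf at 38.5 to 39.9 TPM, between Cnn1 and Myh11, and between Myh11 and Myocd.

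In the order of levels, the ranges over the libraries overlapped for only 2 of the 9 neighbouring pairs, Tpm1 with Myl9 and Actg2 with Cnn1. The largest step between neighbours other than that to Myocd was from Cnn1 to Myh11, where the mean of Cnn1 was 13.0-fold that of Myh11. The next was from Tpm2 to Srf, at 3.45-fold. These steps depend on the division by length. By counts not divided by length Tpm1 was the highest gene, at 1.44-fold the mean of Tagln. On that scale Cnn1 was 2.88-fold Myh11 and Tpm2 1.25-fold Srf, and the largest step other than that to Myocd was from Srf to Cnn1, at 5.07-fold. Together the 10 genes took 1513, 1469 and 1445 TPM in replicates 1, 2 and 3. Acta2 and Tagln held 52.8% to 53.5% of that sum, and the 5 genes of the upper step held 93.9% to 94.2%. As a share of counts, the 10 genes took 0.113% (95% Wilson interval 0.111% to 0.115%) in replicate 1, 0.111% (0.109% to 0.113%) in replicate 2 and 0.110% (0.109% to 0.112%) in replicate 3. The 8 genes with a mean of 10 TPM or more had a median coefficient of variation of 3.12%, against 3.84% over all 8372 such genes.

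The next comparison set each gene other than the regulators Srf and Myocd beside close relatives that serve the general cytoskeleton, within the same libraries. Of 15 listed pairs 12 were measured. In 11 of 12 measured pairs the smooth muscle type gene was the lower one in 3 of 3 libraries, Tpm1 over Tpm3 being the exception. Tpm1, Tpm2, Myl9 and Myh11 each entered more than 1 pair. Tagln3, at 0.0207 TPM and so below Tagln, and Myh14, at 32.9 TPM and so above Myh11, were in no pair. Since 1 gene of each pair was chosen with its level known, these ratios carry no test. The ratios are on the log2 scale, after 0.1 TPM was added to both levels, and are given ± SD over 3 libraries.

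Acta2 stood at 7.23% of the level of Actb, the cytoplasmic beta-actin, which had 4377 ± 95.1 TPM, and the log2 ratio was -3.79 ± 0.08. For Actg2 and the cytoplasmic gamma-actin Actg1, at 824 ± 24.7 TPM, the log2 ratio was -5.08 ± 0.10. Actg1 is listed at 2 places in the genome with the lengths added, so its TPM is uncertain, and without the division by length the log2 ratio of Actg2 to Actg1 was -6.72. Summed over the 6 actin genes, Acta2 made up 5.72% ± 0.303 and Actg2 0.439% ± 0.0374 of actin TPM (SD, n = 3). The skeletal actin Acta1 held 0.0106% ± 0.00458, and the cardiac actin Actc1 had no count. Almost all remaining actin transcript was thus cytoplasmic, with 79.0% ± 0.435 from Actb alone.

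The contrast between Tagln and Cnn1 was also seen beside their relatives. Tagln stood at 32.0% of the level of Tagln2, the widely expressed transgelin 2, which had 1455 ± 20.9 TPM, with a log2 ratio of -1.64 ± 0.02. Cnn1 stood at 2.23% of Cnn3, the calponin of non-muscle cells, which had 985 ± 5.83 TPM, with a log2 ratio of -5.48 ± 0.08. Tagln3, the neuronal transgelin, which is listed at 2 places, had 1 count in all. Tagln thus supplied 24.3% ± 0.282 of transgelin TPM, whereas Cnn1 supplied 2.18% ± 0.118 of the TPM of Cnn1 and Cnn3 (SD, n = 3). Cnn2 was not analysed here.

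Among tropomyosins Tpm4, a non-muscle form, was the highest at 1278 ± 13.7 TPM and made up 69.4% ± 0.341 of the family. Tpm1 made up 13.0% ± 0.151 and Tpm2 7.36% ± 0.0506. The log2 ratio of Tpm1 to Tpm4 was -2.41 ± 0.02 and that of Tpm2 to Tpm4 was -3.24 ± 0.02. Against Tpm3, at 188 ± 2.21 TPM, the log2 ratios were 0.35 ± 0.01 for Tpm1 and -0.47 ± 0.01 for Tpm2. The ratios to Tpm4 rest strongly on gene length, since Tpm4 is listed with 894 bases and Tpm1 with 2940. Without the division by length the log2 ratio of Tpm1 to Tpm4 was -0.70, that of Tpm2 to Tpm4 was -2.50 and that of Tpm2 to Tpm3 was -1.39.

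Myl9 made up 17.0% ± 0.91 of the summed TPM of 3 regulatory light chains, below Myl12a at 57.1% ± 1.82 and Myl12b at 26.0% ± 1.01, which encode the near-identical light chains of non-muscle myosin. Their levels were 772 ± 34.6 TPM for Myl12a and 352 ± 8.91 TPM for Myl12b, and the log2 ratios of Myl9 to them were -1.75 ± 0.12 and -0.62 ± 0.05. Myh11 made up 1.47% ± 0.175 of the TPM of 4 myosin II heavy chain genes. Myh10, a non-muscle heavy chain, made up 67.1% ± 1.89 at 76.9 ± 2.06 TPM, and Myh14, another, 28.7% ± 1.55. The log2 ratio of Myh11 to Myh10 was -5.44 ± 0.20, or -4.86 with 1 TPM added. Myh9, the main non-muscle heavy chain of many cells, was listed at 3.10 ± 0.206 TPM, with a log2 ratio of Myh11 to Myh9 of -0.84 ± 0.07. Myh9 shares 7206 of its 7421 listed exon bases with Myh9l1, itself at 1.72 ± 0.396 TPM. The level of Myh9, the share of each heavy chain and the order of Myh10 over Myh9 are therefore uncertain. If reads on shared bases went uncounted, which was not tested, the level of Myh9 is too low and the other shares are too high. None of the 10 contractile genes shares an exon base with another listed gene.

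**Figure D2:**
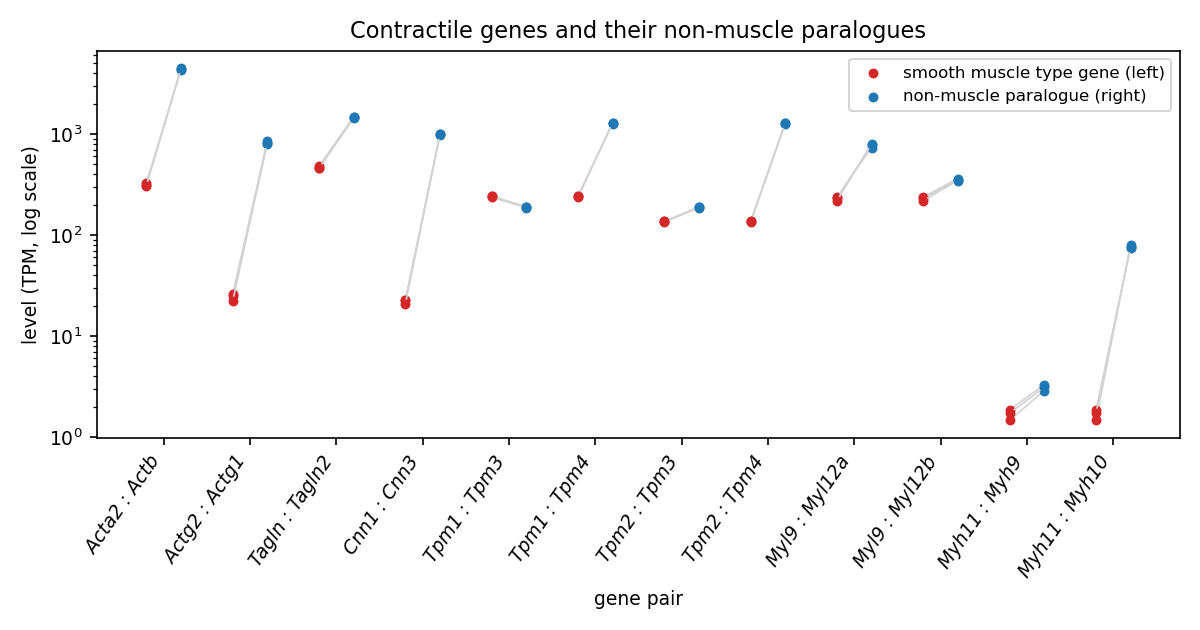
Level in TPM (log scale) of a smooth muscle type gene (red, left) and a non-muscle relative (blue, right) in 12 pairs, with 1 line for each of 3 libraries. Lines go up in 11 pairs, and Tpm1 with Tpm3 is the exception.

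**Figure D3:**
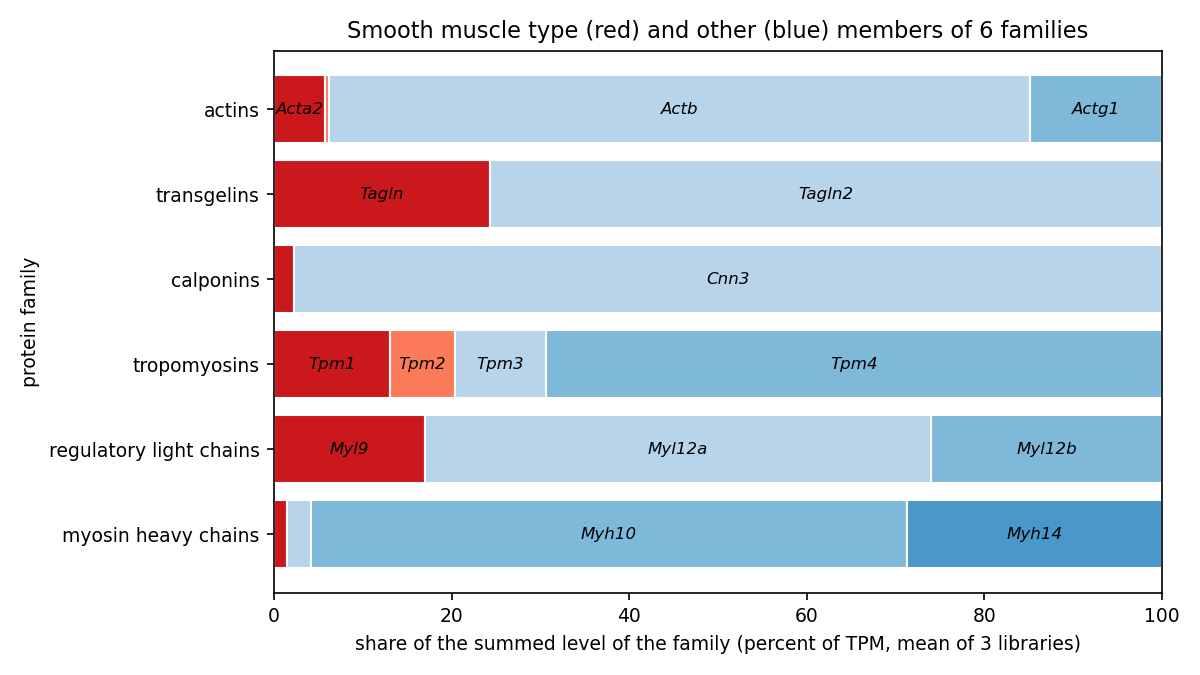
Share of the summed TPM of 6 protein families held by each gene, as the mean of 3 libraries, with smooth muscle type genes in red and others in blue. Red takes 24.3% of the transgelins, 20.4% of the tropomyosins and 17.0% of the regulatory light chains, but 6.16% of the actins, 2.18% of the calponins and 1.47% of the myosin heavy chains. The heavy chain shares are uncertain, since Myh9 shares most of its exon bases with Myh9l1.

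Genes outside the set were taken from lists chosen with earlier results of these data known, so their calls describe levels only. The list genes were tested against 1 TPM with limma on log2(TPM + 1), two-sided, with Benjamini-Hochberg adjustment over the 13345 genes with a count. Of those genes 78.4% were above and 17.8% below 1 TPM at an adjusted p under 0.05, and their median was 21.7 TPM. The first list held 18 other genes of the smooth muscle contractile apparatus. By limma 12 were above and 2 below 1 TPM, 3 passed in neither direction and 1 had no count. The list's median was 7.83 TPM, and each library had at least 100 TPM of 2 of its genes. That level was reached by 11.7% of all listed genes.

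The highest genes of that list were Csrp1 and Cald1, which are also used outside muscle. Csrp1, a LIM protein of the actin cytoskeleton, was at 983 ± 4.46 TPM, and Cald1, encoding caldesmon, was at 364 ± 14.7 TPM. Cald1 makes a muscle and a non-muscle isoform, which the table does not separate. Smtn, encoding smoothelin, was at 61.4 ± 1.47 TPM and the small heat shock gene Hspb6 at 39.5 ± 0.185 TPM. Smtn too has isoforms for different types of smooth muscle, which 1 value per gene does not separate.

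At the low end of the list, the LIM gene Pdlim3 was at 0.182 ± 0.00751 TPM and Kcnmb1, the smooth muscle subunit of a calcium-activated potassium channel, at 0.598 ± 0.292 TPM, and both were below 1 TPM by limma (adjusted p = 8.24e-06 and 0.0157). The call of Kcnmb1 was lost without replicate 1 or 2 and with no filter on low values, with an adjusted p of 7.39e-05 to 0.198 over 9 alternatives. The lowest of these came from the limma test against 2 TPM. Against 1 TPM the lowest was 0.000448, without replicate 3. Pln, encoding the calcium pump inhibitor phospholamban, had 0.420, 0.774 and 0.967 TPM and did not pass (limma adjusted p = 0.0583, or 0.0101 without replicate 3). Chosen for mention after their values were seen, Lmod1, which nucleates actin filaments in smooth muscle, was at 1.28 ± 0.174 TPM, the intermediate filament gene Des at 7.89 ± 1.29 TPM and Mylk, the kinase of the regulatory light chain, at 11.3 ± 0.524 TPM. The call of Lmod1 above 1 TPM (limma adjusted p = 0.0475) changed under 7 of 9 alternatives, where the adjusted p was 0.00157 to 0.188, with 0.170 without replicate 1 and 0.188 without replicate 3. The 0.00157 came from the limma test against 2 TPM, where Lmod1 was on the lower side (log2 difference -0.40). The essential light chain gene Myl6 had no count, but all 677 of its exon bases are shared with Myl6b and Myl6l in the table, so its level cannot be read here.

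The second list held regulators of serum response factor and its partners, of which 11 of 13 were measured. By limma 9 were above and 1 below 1 TPM, where 78.4% of all tested genes were above, and the median was 41.3 TPM. The GTPase Rhoa, which acts on actin assembly upstream of the myocardin-related factors, was at 1369 ± 10.5 TPM, and its effector kinase Rock1 at 51.8 ± 2.53 TPM. Fhl2, a LIM cofactor, was at 247 ± 6.71 TPM and the homeobox gene Prrx1 at 109 ± 4.27 TPM. Among those named after their values were seen, the ternary complex factor Elk1, a partner of serum response factor at growth genes, was at 50.0 ± 5.08 TPM, and Klf4, a repressor of smooth muscle genes, at 16.0 ± 0.866 TPM. Gata6 had 1.60, 1.63 and 0.622 TPM and passed in neither direction (limma adjusted p = 0.316), but without replicate 3 it was above 1 TPM (0.00346). Tcf21, with 1.11, 0.475 and 0.237 TPM from 10, 4 and 2 counts, was below 1 TPM (limma adjusted p = 0.0431), but not without replicate 2 (0.106) or replicate 3 (0.170). Over the 9 alternatives the adjusted p of Gata6 was 0.00346 to 0.864 and that of Tcf21 was 0.000391 to 0.187. The lowest value of Tcf21 came from the limma test against 2 TPM. Against 1 TPM its lowest was 0.0192, without replicate 1. Mrtfa and Mrtfb, the myocardin-related factors, were not analysed here.

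Another list held 12 targets of serum response factor in the general actin cytoskeleton, of which 11 were measured. All 11 were above 1 TPM by limma, as were 78.4% of all tested genes. The list's median was 145 TPM, and each library had at least 100 TPM of 7 of its genes. That level was reached by 11.7% of all listed genes. The actin crosslinker gene Flna was at 506 ± 0.951 TPM, Pdlim7 at 282 ± 10.3 TPM, the adhesion gene Zyx at 212 ± 2.59 TPM and Vcl, encoding vinculin, at 193 ± 1.55 TPM. Zyx shares 144 of its 2557 exon bases with Epha1 in the table. Of the non-muscle relatives described above, taken as a list of 12 measured genes, 11 were above and Tagln3 was below 1 TPM by limma (adjusted p = 1.93e-06), with a median of 562 TPM.

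Markers of cells that could carry contractile genes were measured in the same libraries. By limma 8 of 9 mural cell markers, those of pericytes and vascular smooth muscle, were above and 1 was below 1 TPM. Of all 13345 tested genes 78.4% were above, so this number of markers does not identify a cell type. The summed level of the markers was 798 to 834 TPM per library. Most of that sum came from Mcam at 578 ± 12.4 TPM and Pdgfrb at 173 ± 3.23 TPM. The remaining genes were Anpep at 32.0 ± 0.454 TPM, Abcc9 at 7.90 ± 0.5 TPM, others at 7.49 TPM or less, and the pericyte gene Higd1b at 0.444 ± 0.273 TPM. Rgs5, a defining pericyte gene named after its values were seen, had 4.71, 1.60 and 3.46 TPM from 19, 6 and 13 counts. It was above 1 TPM by limma (adjusted p = 0.00178), but not without replicate 1 (0.0884) or with no filter on low values (0.0514). In the limma test against 2 TPM it did not pass either (0.0705). Over 9 alternatives the limma adjusted p of Rgs5 was 4.69e-06 to 0.0884.

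All 10 fibroblast and myofibroblast markers were above 1 TPM by limma, as were 78.4% of all tested genes. This number likewise does not identify a cell type. The summed level of the 10 markers was 8625 to 8831 TPM per library, and their median was 434 TPM. The collagen genes Col1a1 and Col3a1 led with 3842 ± 64.6 and 2009 ± 34.3 TPM, followed by Dcn at 842 ± 20.3 TPM and Postn at 800.4 ± 35 TPM. Chosen for mention after their values were seen, the lowest of the 10 were Fap at 10.7 ± 0.569 TPM and Lrrc15 at 5.91 ± 0.876 TPM. The part of fibroblasts or mural cells in the levels of Acta2, Tagln and the other contractile genes was not tested. Of 11 measured striated muscle markers 2 were above and 4 below 1 TPM by limma and 5 had no count, and their summed level was 13.1 to 14.8 TPM. Above were the troponin genes Tnnt2 at 9.37 ± 0.404 TPM and Tnnc1 at 3.71 ± 0.953 TPM. Acta1 was at 0.588 ± 0.248 TPM and below (limma adjusted p = 0.0114). That call was lost without replicate 1 (0.0769) or replicate 3 (0.0692) and with no filter on low values (0.0752). Over 9 alternatives its limma adjusted p was 5.11e-05 to 0.0769. The lowest value of Acta1 came from the limma test against 2 TPM. Against 1 TPM the lowest of the alternatives was 0.0121, without replicate 2. The myosins Myh3 and Myh7 had 2 counts and 1 count in all, the troponin gene Tnnt1 had 2, and Myh6 and Actc1 had none.

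**Figure D4:**
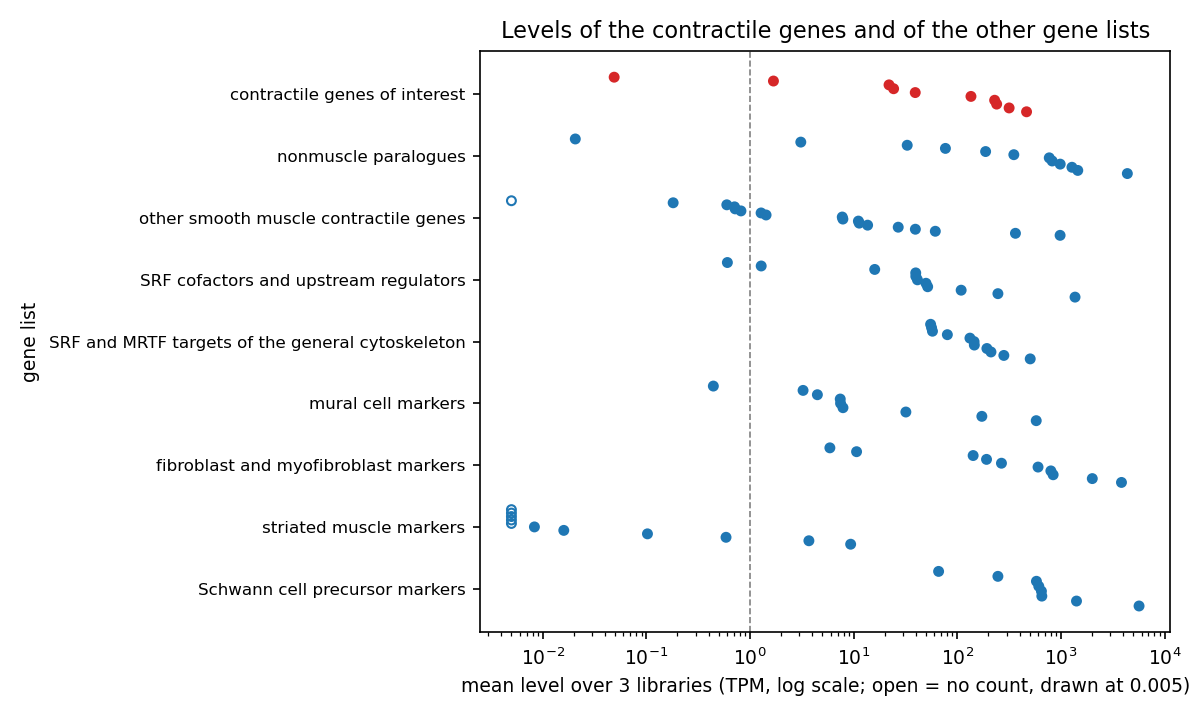
Mean level over 3 libraries in TPM (log scale) of the 10 contractile genes (red) and of the genes of 8 other lists (blue), with a dashed line at 1 TPM and open symbols for genes with no count. The contractile genes run from Myocd at 0.049 TPM to Tagln at 466 TPM, and the 11 general cytoskeleton targets all lie above 1 TPM.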

How the data were processed

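RNA of 3 libraries was prepared with a stranded kit that selects mRNA, per the labels' protocols. The submitters' processing notes name STAR 2.5.2b, Subread and rn6. No source used here gives the annotation, the strand setting or the treatment of reads with several matches. The authors deposited raw counts per gene, gene lengths in bases and TPM. TPM made again from counts and lengths lay within 0.0005 of the authors' deposited TPM (tolerance 0.001). Count columns were matched to libraries by title and TPM columns by number. A further 9 columns and 2 rows without a gene name were not used. Total counts were 14139074 to 15309526. Intervals and floors cover counting error only.

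Libraries differed beyond sampling noise, with a chi-square per degree of freedom of 1.67 to 2.36 among genes that had 20 or more counts summed over a pair. No source says that they came from separate cultures, so p-values reflect the spread among 3 libraries, and that spread may be technical.

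Genes of the lists were tested with limma 3.58.1 (R 4.3.3), as a moderated one-sample test with trend of log2(TPM + 1) against 1 TPM, for genes with a count in at least 1 library. The pseudocount understates differences of low genes. The step was tested on simulated data. The contractile genes, lists, pairs and alternatives were chosen with earlier results of these data known. Named are all 10 contractile genes, the 4 highest genes of each list, up to 6 under 1 TPM in each library, and genes of the pairs, with exceptions marked in the text, and 2 of the highest precursor markers are not reported here. Of 106 list symbols 100 were found, 2 of them by NCBI identifier. Alternatives changed the detection level, the pseudocount, the filter, the variance trend, the tested level and the division by length, or left out a library. Promoter sequences are from RefSeq, GRCr8.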

Additional observations from a re-analysis of the deposited data

How the results depend on the processing

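The number of contractile genes at 1 TPM or more in each library, 9 of 10, was 9 at a level of 0.5 TPM, 8 at 2, 5 and 10 TPM, and 9 without each library in turn or by counts not divided by length. The number of pairs with the smooth muscle type gene lower in each library was 11 under each of the 6 alternatives. It was 9 when relatives listed at 2 places or sharing exon bases (Actg1, Myh9) were left out, an alternative chosen after seeing the data. All 114 recomputed pair ratios kept their sign, and 93 moved by less than 1 SD. Each ratio had the same sign in 3 of 3 libraries. Adding the same level to both genes, or leaving out 1 library, therefore could not turn a sign. Leaving out 1 of 3 libraries also cannot move a mean by 1 SD. Only the alternative without the division by length could have changed the sign or the number of pairs. Leaving out the division by gene length moved 16 of 19 ratios more than any other alternative did, the log2 ratio of Acta2 to Myh11 being 5.29 and that of Actg2 to Actg1 -6.72. It also turned the order of Acta2 over Tpm1 (log2 ratio of means -0.69) and of Actg2 over Cnn1 (-0.099), a comparison added after seeing the data. The number of genes above 1 TPM was 11 of the non-muscle relatives and 11 of the general cytoskeleton targets under each of 9 alternatives. Over the same alternatives it was 10 to 12 for the other smooth muscle genes and 9 or 10 for the regulators. Without genes that share exon bases or are listed at 2 places it was 9 of the non-muscle relatives, 12 of the other smooth muscle genes, 8 of the regulators and 9 of the cytoskeleton targets. Of 84 tested list genes 70 kept their call under each of 9 alternatives, and 4 others kept it under the 7 or 8 in which they could be tested. Tested against 2 TPM in place of 1 TPM, Lmod1 (log2 difference -0.40), Ppp1r14a (-0.31) and Gata6 (-0.43) turned to the lower side, since their levels lie between these values. No paired analysis was possible because the labels give 1 group. Depth limits what can be said of Myocd, whose 5 counts in all lie at or under the floor of 3 counts in each library. Its interval of 0.0155 to 0.111 TPM covers counting error only, so its level is uncertain.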
